A study of Homo sapiens with 3 samples.

Results

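The 4 clusters of HOX genes were examined in HCT116 cells, a colorectal cancer cell line, after knockdown of SMARCA4. Members were all array probes, other than control probes, whose gene name was HOXA, HOXB, HOXC or HOXD followed by a number. The rule goes by name and uses neither level nor response, but it was set with earlier results of these data known. The rule found 48 of 58201 probes, which belong to 39 of 43317 gene names. Of these genes, 32 had 1 probe and 7 had more than 1.

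Gene expression was measured on 1-colour Agilent arrays, with 1 array each for SMARCA4-KD1, SMARCA4-KD2 and NC. All cells were HCT116 cells transfected with small interfering RNA: the knockdown cells received siRNA against SMARCA4, an ATPase that drives nucleosome remodeling by SWI/SNF complexes, and NC cells were the negative control. The labels give SMARCA4 in the sample titles but PRMT1 in the treatment field, which was the source of the knockdown number, and do not say which siRNA was used in which knockdown. No condition had a second array, so differences of a single knockdown have no replicate check and carry no p-value, and the NC array is shared by both comparisons. The arrays came from whole cultures, in which fewer expressing cells and less RNA per cell cannot be told apart.

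HOX genes encode homeodomain transcription factors that give cells their position along the body axis. In each cluster the genes lie in the order of their numbers, and the order matches the region in which they act, with low numbers toward the head and high numbers toward the tail. Their expression is known to be set by chromatin, with Polycomb complexes repressing and Trithorax complexes maintaining active clusters, and gut epithelium and colorectal cancers keep a regional HOX pattern in the adult.

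An siRNA against SMARCA4 is shown because it defines a knockdown, 5′ to 3′ with the bases the labels give and none marked by capitals.
SMARCA4 siRNA-1: ucgcuuugguucgcaaauc

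The probe fixes which transcript a value stands for, so the first 30 of the 60 bases are shown for the 7 HOX genes that were at least 1.5-fold apart from NC in the same direction in both knockdowns. Letters are lower case throughout, and positions are those of the whole probe in hg19, as the array files give them.
HOXB8, chr17:46689835-46689894, minus strand: gctgtgggcaattgttacaagtgttcttag
HOXB9, chr17:46698615-46698674, minus strand: ttctttgggggtgattgtctcgcttgtttt
HOXC4, chr12:54449755-54449814, plus strand: tagtgtcgatgtgaaatgccccgtgatcaa
HOXA11, chr7:27220776-27220835, minus strand: gtgttgcagcacttatacaggcaactgggc
HOXB3, chr17:46627302-46627361, minus strand: acattttaaaaaccagacaagatggctagg
HOXB5, chr17:46668806-46668865, minus strand: aaatgtcttgtgtatttctctgtgaatcca
HOXC8, chr12:54406311-54406370, plus strand: ccccagtagagtagaactaaattgcactga

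HOX genes resemble each other most in the homeobox, so shared stretches between probes were counted. The longest stretch that a probe of the 7 genes had in common with a probe of another HOX gene was 11 bases. Probes were compared only with probes and not with whole transcripts. Whether a probe also reads the transcript of another HOX gene was therefore not tested. Whether a probe lies in a coding exon or an untranslated region was not determined, since no hg19 annotation was used here.

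SMARCA4 itself was read first. Its processed signal, the brightness after the scanner software's background subtraction and detrending, was 3960 (SMARCA4-KD1), 4129 (SMARCA4-KD2) and 14026 (NC). After each array was scaled to its 75th percentile, 26.6% and 28.8% of the NC level were left. PRMT1 was not reduced and lay 0.27 and 0.37 above NC on the log2 scale. The arrays were therefore taken as SMARCA4 knockdowns, as in the sample titles. The cells were read against their label as well. Of 14 markers of colorectal epithelium, 10 were well above background on all arrays, among them EPCAM, CDH1, KRT8, KRT18, KRT19 and CDX2, and VIL1, LGR5 and ASCL2 were not well above background on any. The defining fibroblast markers COL1A2, COL3A1, DCN, LUM and PDGFRB, the endothelial markers PECAM1 and KDR, the leukocyte marker CD3E and the hepatocyte markers ALB and TTR were not well above background on any array. The knockdown arrays were scanned together and the NC array separately, so scan and knockdown cannot be told apart.

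HCT116 cells expressed most of the HOXA and HOXB clusters and little of the HOXD cluster. A gene counted as detected on an array when the software called at least 1 of its probes well above background. The HOXA cluster (chromosome 7) had 10 of 11 genes detected on all arrays, and the HOXB cluster (chr17:46607916-46802203, 194 kb between its outer probes) had 9 of 10. In the HOXC cluster (chr12:54340034-54449814, 110 kb) 6 of 9 genes were detected on all arrays and 1 on some. In the HOXD cluster (chr2:176960600-177055431, 94.8 kb) 2 of 9 genes were detected on all arrays and 1 on some. In all, 27 HOX genes were detected on every array, 2 on some and 10 on none.

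By position over the 4 clusters together, the central genes were detected most often, but position was mixed with cluster. Of the genes numbered 4 to 8, 14 of 15 were detected on all arrays. Of those numbered 1 to 3 it was 5 of 8, and of those numbered 9 to 13 it was 8 of 16. Within HOXA and HOXB, every gene numbered 4 to 8 or 9 to 13 was detected on all arrays. The HOXD cluster held 6 of the 10 genes detected on no array. The 10 genes not well above background on any array, among them HOXB1, HOXC11, HOXC12, HOXD10, HOXD11, HOXD12 and HOXD13, had signals between 3.29 and 16.4. HOXB1 is known for hindbrain patterning, and the posterior HOXD genes for limb and digit formation. At this signal over background a level, or a difference between conditions, was not detectable for them.

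The share of the 48 HOX probes well above background was 72.9% (SMARCA4-KD1), 75% (SMARCA4-KD2) and 70.8% (NC). Over all probes the shares were 46.8%, 47.3% and 45.7%. No HOX probe was saturated or marked as an outlier spot.

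**Figure D1:**
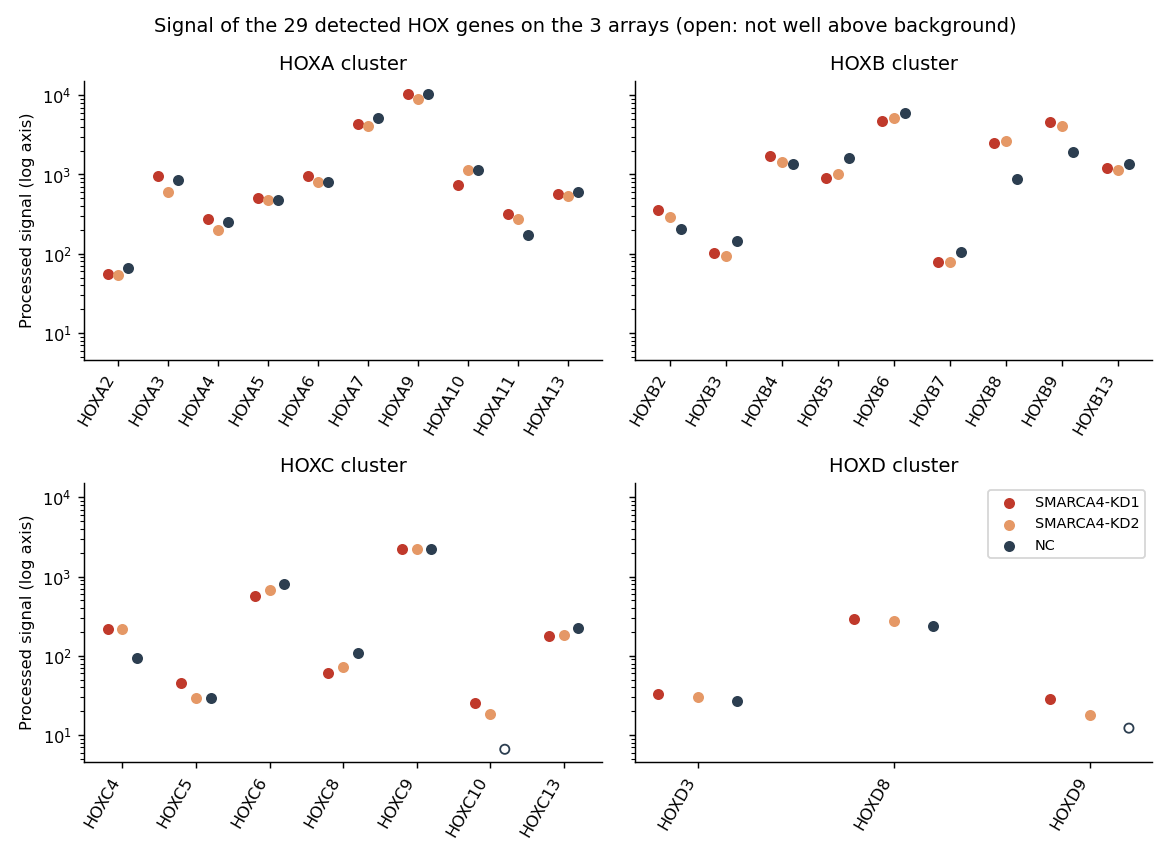
Processed signal (log axis) of the 29 HOX genes detected on at least 1 of the 3 arrays, 1 panel per cluster, with genes in order of their number and each point 1 array. Open points are not well above background; HOXB8, HOXB9 and HOXC4 lie higher on both knockdown arrays than on the NC array, and HOXC10 and HOXD9 are open in NC. Heights of different genes come from different probes and are not comparable.

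SMARCA4 knockdown went with higher signal of some HOX genes and lower signal of others. Some neighbours in a cluster lay on opposite sides, such as HOXB7 and HOXB8, and others on the same side. Of the 29 HOX genes detected on at least 1 array, HOXB8, HOXB9, HOXC4 and HOXA11 (4 genes) exceeded NC by at least 1.5-fold in both knockdowns. HOXB5, HOXC8 and HOXB3 (3 genes) lay below NC by at least 1.5-fold in both. Over the 22620 genes that passed the same filter, 6.35% exceeded NC by 1.5-fold or more in both comparisons and 8.05% lay below it by as much, which makes 14.4% in all. With 2-fold as the threshold, the higher genes were HOXB8, HOXB9 and HOXC4 and no HOX gene was lower in both, while 1.46% of all genes reached 2-fold higher signal in both.

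As separate comparisons, 6 HOX genes were at least 1.5-fold higher and 5 at least 1.5-fold lower in SMARCA4-KD1, where 11.2% and 12.3% of all genes were. In SMARCA4-KD2 the counts were 4 and 3, against 10.1% and 9.77% of all genes. Counting any size, 9 HOX genes lay above NC in both knockdowns, 15 lay below NC in both and 5 lay on opposite sides, where 41.1% of all genes lay above and 39.3% below in both. The 29 genes had a median log2 difference from NC of -0.0022 (SMARCA4-KD1) and -0.050 (SMARCA4-KD2), beside -0.0038 and 0.020 over all genes. Over the 27 HOX genes detected on all arrays the medians were -0.09 and -0.17, beside 0.016 and 0.037 over all such genes. The genes lay on both sides of NC and are described by cluster.

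The largest mean difference of any HOX gene was that of HOXB8, followed by HOXC4 and HOXB9. HOXB8, which patterns the trunk and holds blood progenitors in an immature state when forced on, had a signal of 2509 (SMARCA4-KD1), 2612 (SMARCA4-KD2) and 881 (NC). It was 2.68-fold and 2.90-fold higher than NC, or 1.42 and 1.54 on the log2 scale, and both knockdown arrays lay well above the NC array. HOXB9, a patterning gene of the thoracic skeleton, had a signal of 4532 (SMARCA4-KD1), 4101 (SMARCA4-KD2) and 1918 (NC). It was 2.23-fold and 2.09-fold higher. For both genes the software error of the difference, combined from the knockdown and NC arrays, was 0.20 on the log2 scale. It was also 0.20 for other bright HOX genes such as HOXA9 and HOXB6, so it is not a spread measured for each gene. It holds no variation between cultures. The median SD of repeated spots of a probe was 0.034 to 0.039 on the log2 scale on these arrays.

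The nearest genes at the other side of HOXB8, which are HOXB7, HOXB6 and HOXB5, lay below NC. HOXB5, known in the enteric nervous system and the vessel wall, had a signal of 915 (SMARCA4-KD1), 1021 (SMARCA4-KD2) and 1604 (NC). It was 1.86-fold and 1.61-fold lower in the knockdowns. HOXB6, active in limb buds and blood progenitors, had a signal of 4770 (SMARCA4-KD1), 5120 (SMARCA4-KD2) and 6034 (NC), with differences of -0.43 and -0.27 that did not reach 1.5-fold. HOXB7, often high in carcinomas, had a signal of 79.2, 79.7 and 106 in the same order, with differences of -0.50 and -0.44, also under 1.5-fold. HOXB5, HOXB6 and HOXB7 were therefore each dimmer on both knockdown arrays than on the NC array. The probe of HOXB7 lies 4.85 kb from that of HOXB8, and across this gap the mean difference of both knockdowns from NC stepped from -0.47 to 1.48, the largest step between detected neighbours in any cluster.

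Toward the anterior end of the HOXB cluster, HOXB3 was past the threshold and HOXB2 and HOXB4 were not. HOXB3, which acts in the hindbrain and thyroid, had a signal of 101 (SMARCA4-KD1), 94.3 (SMARCA4-KD2) and 146 (NC), 1.53-fold and 1.58-fold lower in the knockdowns. HOXB2, another hindbrain gene, was read by its brighter probe at 357, 292 and 208, which is 0.69 and 0.46 above NC on the log2 scale, so that SMARCA4-KD1 alone was past 1.5-fold. Its second probe read 207, 222 and 271, which is -0.48 and -0.32 relative to NC. The probes of HOXB2 thus gave opposite directions, and no direction is given for that gene.

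HOXB4, known for the expansion of blood stem cells, had a signal of 1724 (SMARCA4-KD1), 1419 (SMARCA4-KD2) and 1372 (NC), which is 0.24 and 0.02 above NC. Its dimmer probe, not well above background in SMARCA4-KD1, read 13.1, 20.4 and 28.9 and lay below NC. HOXB13, a prostate and hindgut gene that sits 104 kb beyond HOXB9, had a signal of 1197, 1137 and 1336, with differences of -0.24 and -0.26. HOXB13 thus did not share the higher signal of HOXB8 and HOXB9.

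In the HOXC cluster the most anterior gene was the highest. HOXC4, which takes part in antibody gene switching in B cells, had a signal of 221 (SMARCA4-KD1), 216 (SMARCA4-KD2) and 94.9 (NC). It was 2.19-fold and 2.22-fold higher, and the knockdown arrays differed from each other by 0.02 on the log2 scale. HOXC8, which sets the identity of limb motor neurons and thoracic vertebrae, had a signal of 61.5 (SMARCA4-KD1), 73.0 (SMARCA4-KD2) and 110 (NC). It was 1.89-fold and 1.54-fold lower. HOXC4 and HOXC8 thus lay on opposite sides of NC, with HOXC5 and HOXC6 between them.

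HOXC5, a neck-region patterning gene, had a signal of 46.1 (SMARCA4-KD1), 29.2 (SMARCA4-KD2) and 29.6 (NC), and only the first of these stood apart. HOXC6, linked to prostate and breast development, had a signal of 575, 668 and 814, with differences of -0.59 and -0.32, so that it passed 1.5-fold in SMARCA4-KD1 alone. HOXC9, which acts in the thoracic spinal cord, had nearly the same signal throughout, at 2225, 2228 and 2248. HOXC13, a hair and nail gene, had a signal of 178, 181 and 225, with differences of -0.42 and -0.34. HOXC6 and HOXC13 were dimmer on both knockdown arrays than in NC, and HOXC9 was within 0.10 of it.

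HOXC10, a lumbar motor neuron gene, was detected in the knockdowns only. Its signal was 25.3 (SMARCA4-KD1), 18.2 (SMARCA4-KD2) and 6.62 (NC), where it was not well above background. Against the lowest signal well above background on the NC array it was at least 1.35-fold higher in SMARCA4-KD1 and at least 1.01-fold higher in SMARCA4-KD2, so it was not among those past the threshold.

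Most genes of the HOXA cluster differed little from NC, and HOXA11 stood apart. HOXA11, required for the forearm, kidney and uterus, had a signal of 317 (SMARCA4-KD1), 274 (SMARCA4-KD2) and 173 (NC). It was 1.73-fold and 1.55-fold higher, and both knockdown arrays lay above the NC array. Its neighbours HOXA10 and HOXA13 lay 8.40 kb and 15.9 kb away, and neither was above NC. HOXA13, which marks the hindgut and the digits, had a signal of 560 (SMARCA4-KD1), 539 (SMARCA4-KD2) and 594 (NC), a difference of -0.17 in each knockdown.

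HOXA10, a uterine and blood gene, depended on the knockdown and on the probe. Its brighter probe read 736 (SMARCA4-KD1), 1154 (SMARCA4-KD2) and 1140 (NC), or -0.72 and -0.01, and its other probe read 431, 354 and 470, or -0.21 and -0.44. No probe of HOXA10 was thus past 1.5-fold in both knockdowns. HOXA9, a driver of acute leukemia when misexpressed, had 4 probes. The brightest read 10451, 8930 and 10454, with differences of -0.09 and -0.26, and over the 4 probes differences ran from -0.26 to 0.11, all under 1.5-fold.

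The remaining HOXA genes were also under 1.5-fold in both knockdowns. HOXA7, which patterns thoracic vertebrae, had a signal of 4292 (SMARCA4-KD1), 4130 (SMARCA4-KD2) and 5164 (NC), a difference of -0.35 in each. HOXA2, which specifies the second pharyngeal arch, had a signal of 56.2, 53.3 and 65.4, with differences of -0.30 and -0.33. HOXA7 and HOXA2 were thus slightly dimmer on both knockdown arrays.

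HOXA3, required for the thymus and parathyroid, had a signal of 945 (SMARCA4-KD1), 592 (SMARCA4-KD2) and 846 (NC), above NC in the former and below it in the latter. HOXA4, a neck and trunk patterning gene, had a signal of 274, 198 and 249, again on opposite sides. HOXA6, a cervical and thoracic patterning gene, read 948, 811 and 815 by its brighter probe, with differences of 0.13 and -0.04. HOXA5, needed for lung development, had a signal of 511, 476 and 482 and lay within 0.05 of NC. For HOXA3 and HOXA4 the knockdowns differed from each other more than their mean differed from NC.

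Of the HOXD genes, 3 were detected on at least 1 array and none was past 1.5-fold in both knockdowns. HOXD8, a trunk patterning gene, had a signal of 288 (SMARCA4-KD1), 276 (SMARCA4-KD2) and 239 (NC), or 0.18 and 0.17 above NC. HOXD3, which patterns the upper neck, had a signal of 33.0, 29.8 and 26.7, or 0.22 and 0.13 above NC, with a software error of up to 0.34. Neither difference was larger than that error. HOXD9, a spinal and limb gene, read 28.2, 18.0 and 12.2, and was not well above background in NC. It was at least 1.51-fold higher in SMARCA4-KD1, while no fold can be given for SMARCA4-KD2, and its second probe was not well above background on any array.

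**Figure D2:**
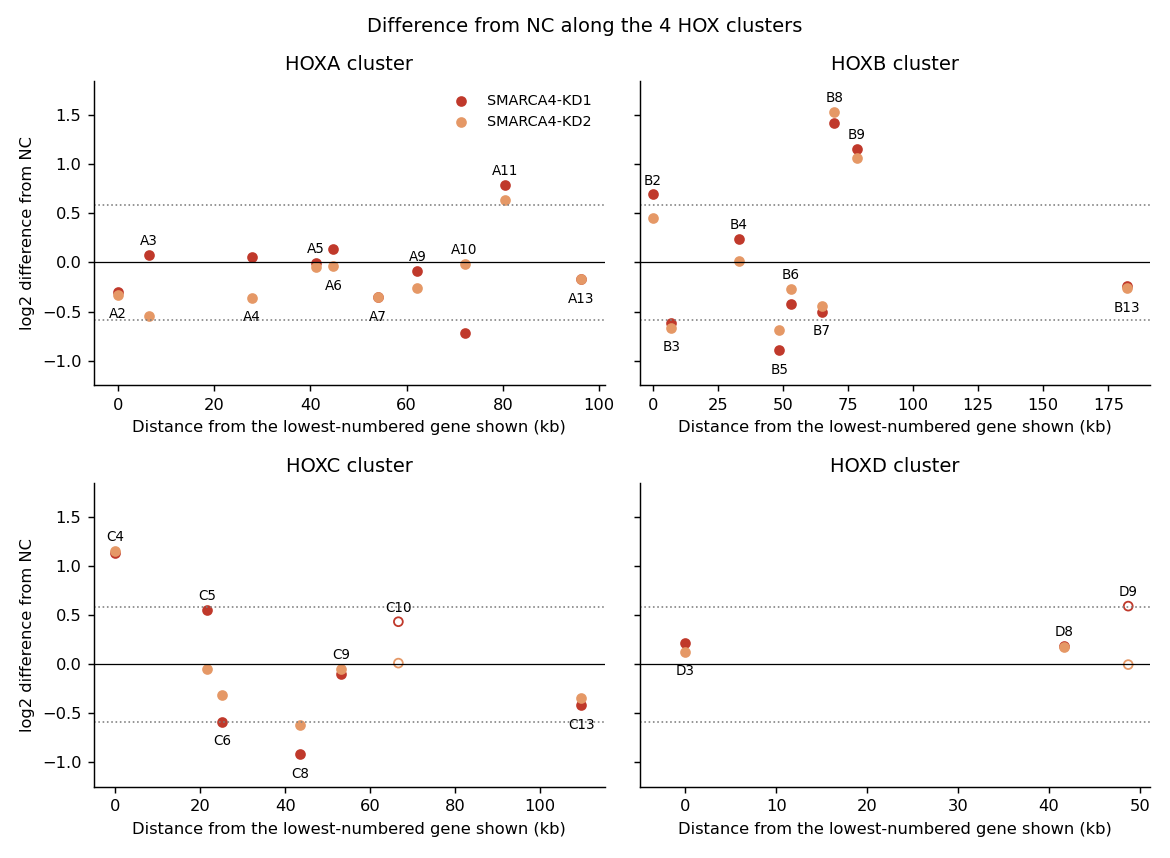
log2 difference from NC (vertical axis) of the 29 detected HOX genes against distance in kb from the probe of the lowest-numbered gene shown of the cluster (horizontal axis), with 1 point for each knockdown and dotted lines at 1.5-fold. Open points have a value that was not well above background and are limits; HOXB8 and HOXB9 lie above the upper line next to HOXB7, which lies below 0, and HOXC4 lies above it at the anterior end of the HOXC cluster.

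Between clusters, the median over genes of the mean log2 difference of both knockdowns was -0.17 for HOXA, -0.25 for HOXB, -0.07 for HOXC and 0.18 for HOXD, where 3 genes were measured. The HOXB genes ran from -0.79 to 1.48 and so spread on both sides of NC. Past 1.5-fold in both knockdowns were 4 of 9 detected HOXB genes, 2 of 7 HOXC genes, 1 of 10 HOXA genes and none of 3 HOXD genes, where the share over all genes was 14.4%. The HOXA and HOXD counts are near that share, and with so few genes in a cluster none of these counts shows a difference between clusters. By position, 1 of 5 detected genes numbered 1 to 3, 4 of 14 numbered 4 to 8 and 2 of 10 numbered 9 to 13 were past 1.5-fold in both. No test was run between clusters or positions.

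The distance between both knockdown arrays gave the only spread available. Over the 27 HOX genes detected on all arrays the difference between SMARCA4-KD1 and SMARCA4-KD2 had an SD of 0.27 on the log2 scale, and over all 19504 such genes it had an SD of 0.25. This spread does not hold the variation of NC, which has 1 array and was scanned separately. limma, which takes the knockdowns as 2 samples of 1 group and has 1 residual degree of freedom, called 0 of 22620 genes at an adjusted p of 0.05, so 0 of the 29 HOX genes, among which the lowest adjusted p was 0.107. At an unadjusted p of 0.05 limma called 10 of the 29 HOX genes and 30.4% of all genes.

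The limma result changed with the filter. Over the 19504 genes well above background on all arrays, limma gave an adjusted p under 0.05 for 9 of 27 HOX genes and for 26.5% of all genes. Its error is the distance between both knockdown arrays alone, with no measure of how NC cells or scans vary, so these p-values may be too small. These 9 were the 7 genes named above, with adjusted p from limma between 0.000803 for HOXB8 and 0.0368 for HOXC8, together with HOXB2 and HOXA7. HOXB2 is the gene whose probes gave opposite directions.

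**Figure D3:**
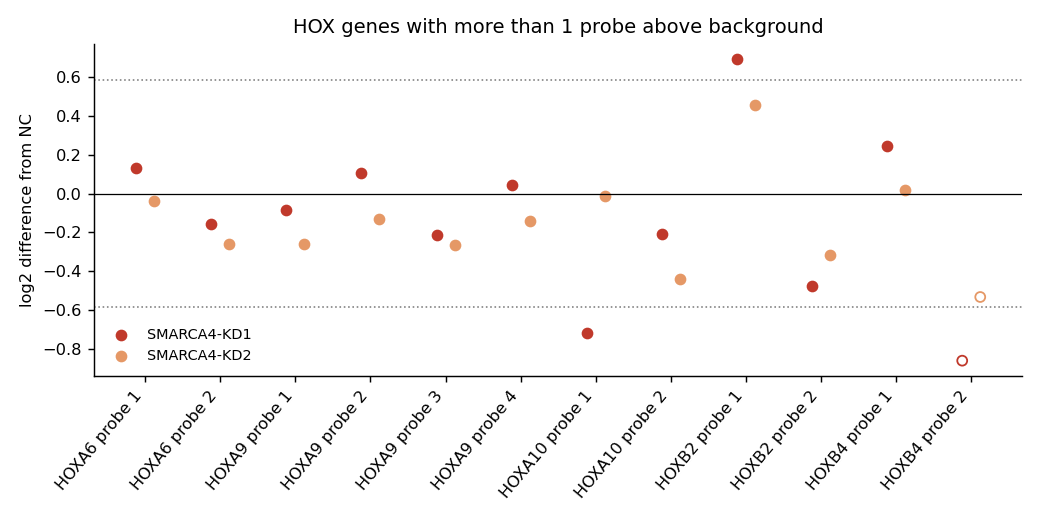
log2 difference from NC of each probe (points, 1 for each knockdown) for the 5 HOX genes with more than 1 probe well above background on at least 1 array, with dotted lines at 1.5-fold. Open points have a value not well above background; the probes of HOXB2 lie on opposite sides of 0, and those of HOXA9 lie within 1.5-fold.

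Of the 7 genes past the threshold, each had 1 probe, so none could be set against a second probe. The genes with several probes were HOXA6, HOXA9, HOXA10, HOXB2, HOXB4, HOXD3 and HOXD9. For HOXA6 the second probe read 178 (SMARCA4-KD1), 160 (SMARCA4-KD2) and 187 (NC), or -0.15 and -0.26. The second probe of HOXD3 was not well above background on any array.

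Promoter sequence is shown for those of the 7 genes with an entry in the RefSeq promoter table used here, which holds 20 of the 39 HOX genes and 2 of the 7. The windows are the 250 bases before the annotated start in GRCh38.p14, 5′ to 3′ on the strand of the gene, and capitals mark motif matches. The motifs searched on both strands were the TATA box (TATAAA), the CCAAT box, the GC box (GGGCGG), a site for HOX with PBX (written as TGATTNAT) and a site for posterior HOX and CDX proteins (TTTATNG).
HOXC4, chr12:54016638-54016887, plus strand: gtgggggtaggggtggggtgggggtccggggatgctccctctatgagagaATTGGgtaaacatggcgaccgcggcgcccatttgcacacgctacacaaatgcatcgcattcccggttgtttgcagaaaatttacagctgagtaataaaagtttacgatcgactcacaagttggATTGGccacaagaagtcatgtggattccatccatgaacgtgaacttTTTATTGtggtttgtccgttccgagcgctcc
HOXA11, chr7:27185233-27185482, minus strand: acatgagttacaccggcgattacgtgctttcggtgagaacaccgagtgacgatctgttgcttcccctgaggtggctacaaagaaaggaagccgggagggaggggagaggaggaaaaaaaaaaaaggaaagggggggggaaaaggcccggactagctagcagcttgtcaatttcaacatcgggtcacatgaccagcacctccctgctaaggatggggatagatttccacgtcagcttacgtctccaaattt

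The HOXC4 window, which the table also gives for HOXC5, held CCAAT 2 times, both on the opposite strand, and TTTATNG 1 time. The HOXA11 window held none of the 5 motifs. Of 35116 windows in the table, 32.0% held the CCAAT box, 8.93% the motif TTTATNG, 10.7% the TATA box, 42.6% the GC box and 2.48% the site for HOX with PBX. A match describes the letters and does not show binding. HOXC4 and HOXC5 share this start in the table and differed in their values, since HOXC5 was 0.55 above NC in SMARCA4-KD1 and -0.05 relative to it in SMARCA4-KD2. Whether the transcripts read by their probes begin at this start was not determined. Positions of window and probe are in different genome builds and cannot be compared directly.

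Non-coding RNAs of the clusters lay on either side of NC. Of 25 names in the list, 16 were on the array and 12 were detected, of which 1 was past 1.5-fold upward in both knockdowns and none downward, near the 6.35% and 8.05% over all genes. That RNA was HOXC-AS1, with a signal of 1314 (SMARCA4-KD1), 1233 (SMARCA4-KD2) and 801 (NC), or 0.63 and 0.59 above NC. HOXA11-AS, transcribed opposite HOXA11, had a signal of 120 (SMARCA4-KD1), 130 (SMARCA4-KD2) and 184 (NC). Its differences of -0.71 and -0.54 lay on the other side of NC from HOXA11, and the second did not reach 1.5-fold.

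HOXB-AS1, a non-coding RNA of the HOXB cluster, read 127, 134 and 195, with differences of -0.71 and -0.57. HOXD-AS2, from the HOXD cluster, read 901, 952 and 649, or 0.39 and 0.52 above NC. HOTAIR, a HOXC transcript known to bind Polycomb proteins, read 58.8, 70.0 and 47.7 by the brightest of its 5 probes, or 0.22 and 0.52 above NC. A second HOTAIR probe read 36.1, 31.5 and 29.6, or 0.20 and 0.06 above NC. The remaining HOTAIR probes were not well above background on all arrays, so the size of the difference rests on the probe. HOTAIRM1, which lies at the anterior end of the HOXA cluster, read 3650, 2964 and 3403 and lay within 0.23 of NC by its brightest probe. Another HOTAIRM1 probe read 274, 209 and 337, with differences of -0.39 and -0.72, the latter past 1.5-fold, so its probes did not give 1 size of difference. The 12 detected non-coding RNAs had medians of 0.06 (SMARCA4-KD1) and -0.08 (SMARCA4-KD2).

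The protein-coding genes that flank the clusters gave 12 detected members of 15 on the array. None was past 1.5-fold upward in both knockdowns and 1 was downward, again near the 6.35% and 8.05% over all genes. The latter was KIAA1715, which lies beside HOXD and read 217, 199 and 313, or -0.62 and -0.69. EVX1, a homeobox gene beside HOXA13, read 962, 996 and 1338, with differences of -0.56 and -0.46. SMUG1, a DNA repair gene beside HOXC4, read 1997, 1880 and 1281, or 0.55 and 0.52 above NC. SKAP2, an adaptor protein gene beyond the other end of the HOXA cluster, read 5135, 4154 and 3744, or 0.37 and 0.12 above NC, while MTX2, a mitochondrial gene beyond the HOXD3 end of the HOXD cluster, was within 0.03 of NC. EVX1 lay on the same side of NC as HOXA13 and SMUG1 as HOXC4, whereas SKAP2 lay on the other side from HOXA2 and KIAA1715 on the other side from HOXD8, so the flanks showed no single pattern.

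TALE homeodomain proteins bind DNA together with HOX proteins. Of 9 TALE genes 7 were detected, with 1 higher and 1 lower by 1.5-fold in both knockdowns, beside 14.4% of all genes in either direction. PBX2 read 474 (SMARCA4-KD1), 622 (SMARCA4-KD2) and 253 (NC), or 0.82 and 1.27 above NC. PBX3 read 156, 173 and 333, with differences of -1.18 and -0.97. PBX2 and PBX3 have 2 probes each and were read by the brighter 1 alone. By these probes the closely related cofactors lay on opposite sides of NC. The median over the 7 was -0.19 and -0.29.

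CDX proteins activate central HOX genes in the embryo and CDX2 holds intestinal identity in the adult. Of the 6 CDX and ParaHox genes, 3 were detected and none was past 1.5-fold in both knockdowns, beside 14.4% of all genes. CDX2 read 1176, 1178 and 1161, within 0.07 of NC, and CDX1 read 191, 224 and 202, at -0.16 and 0.12. Neither CDX gene was past 1.5-fold in either knockdown, and what part CDX proteins have in the HOX values was not tested.

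**Figure D4:**
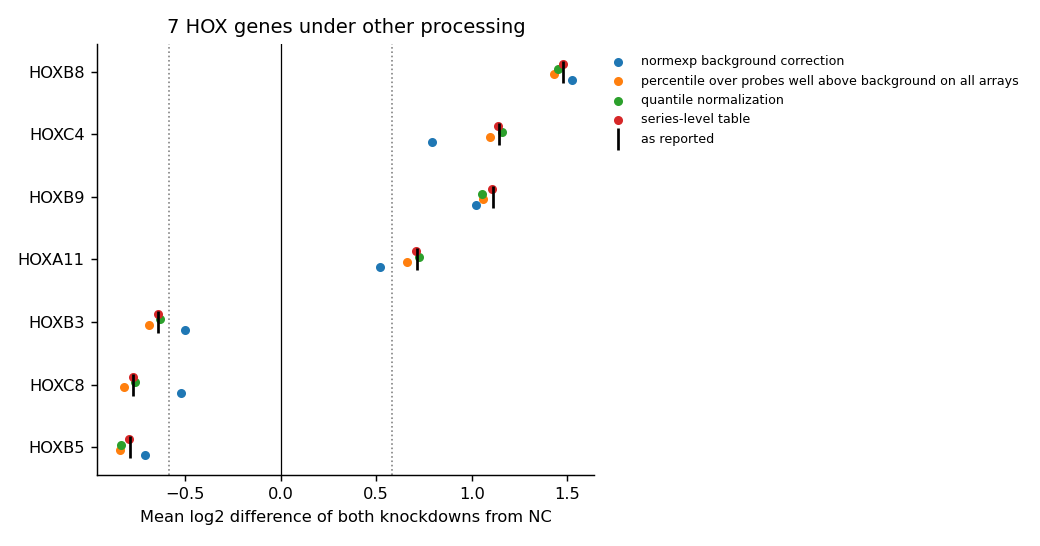
Mean log2 difference of both knockdowns from NC (horizontal axis) for the 7 HOX genes past 1.5-fold in both, as reported (black bar) and under the 4 other ways of processing the arrays that can change them (coloured points), with dotted lines at 1.5-fold. Every gene keeps its side of 0, and under normexp HOXA11, HOXB3 and HOXC8 come to lie inside the lines.

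Of 8 other ways of processing, 4 cannot change these 7 genes, which have 1 probe each and are detected on all arrays. Under the other 4, shown in the plot of settings, each of the 7 stayed on its side of NC. With the value reported included, HOXB8 ran from 1.43 to 1.52, HOXB9 from 1.02 to 1.11 and HOXC4 from 0.79 to 1.16. With normexp background correction HOXA11 came to 0.52, HOXB3 to -0.50 and HOXC8 to -0.52, and these 3 were no longer past 1.5-fold in both knockdowns.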

How the data were processed

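Total RNA of HCT116 cells was hybridised to 1-colour (Cy3) Agilent SurePrint G3 Human arrays. The deposited scanner files hold spot intensity, extracted by the authors with Agilent Feature Extraction 10.7.1.1 per the labels, with background subtraction and detrending but no normalization between arrays. The deposited files also hold 0 or 1 flags, used as given, and a software error. The errors of a knockdown array and the NC array were combined into the error of their difference. In the series-level table of the authors, intensity was within 0.1% of the scanner files for 57870 of 57871 probes with 1 spot, all 48 HOX probes among them.

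Control and outlier spots were left out, repeated spots averaged, and the 75th percentile over non-control probes subtracted from log2 of the processed signal. Values not well above background were raised to the lowest well above it on their array, so folds against them are limits. The 22620 genes that the software called well above background on 1 or more arrays were analysed, each read by its brightest probe, and called at 1.5-fold, the threshold of the methods, whose p of 0.01 needs replicates. limma 3.58.1 (R 4.3.3) was fitted over all genes with eBayes following intensity and p-values adjusted by Benjamini-Hochberg, and the steps were tested on simulated data. Gene names and hg19 positions were taken from the array files. Plots and counts used Python 3.11.15, pandas 2.3.3 and matplotlib 3.10.9.

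The alternatives were quantile normalization, normexp (offset 50), the percentile over probes well above background, other filters, no floor, averaging a gene's probes, probes counted instead of genes, values from the series-level table, a 2-fold threshold and, for limma, no trend. The HOX genes and all lists were chosen with earlier results of these data known. Protein-coding genes of the other lists are given by 1 probe each, also where the array held more, and those further probes were not compared. Every HOX gene well above background on all arrays or past 1.5-fold in both knockdowns is given with its values, and from the other lists those past 1.5-fold in both; other genes named from the lists were chosen after their values were seen. The number of arrays, 1 per condition, limits the precision. Arrays of the PRMT1 knockdown were not analysed here, and 1 HOX gene and 1 siRNA sequence are not reported here.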

Additional observations from a re-analysis of the deposited data

How the results depend on the processing

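Of the alternative values, 162 stayed near the main value and 11 moved. Near meant within 1.5 times a count, or within 0.286 of a log2 value, the SD over the HOX genes of SMARCA4-KD1 minus SMARCA4-KD2. That SD is wide for a median. Some of the 162 could not differ, since a gene with 1 probe detected on all arrays keeps its value under several settings. The tally is therefore no measure of robustness. No gene past the threshold changed direction, but the HOXD median changed sign. With a 2-fold threshold, SMARCA4-KD1 had 3 HOX genes higher and 0 lower, SMARCA4-KD2 had 0 lower, and 0 were lower in both. With normexp, SMARCA4-KD1 had 3 lower, SMARCA4-KD2 had 1, and 1 was lower in both (HOXB5), and HOXC4 was at 0.79. Shares over all genes are not given for these counts, so they show only how the HOX counts moved. At an adjusted p of 0.05 limma called 5 HOX genes after quantile normalization and 9 on genes well above background on all arrays, against 0 in the main analysis and 0 with no trend. The HOXD median was 0.18 in the main analysis and -0.15 with no filter on dim probes, where the median of all genes was -0.15 in both knockdowns, since the floor of the NC array lies higher relative to its percentile. Without the floor, and in the series-level table, HOXC10 joined the higher genes, and its NC value is not well above background there. The cause of the other moves was not tested. No paired analysis was possible because each condition has 1 array. The software error of a difference, which holds no variation between cultures, was up to 0.34 on the log2 scale for HOX genes detected on all arrays.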

Other observations

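The regulators of HOX chromatin were read on the same arrays. All 17 genes of a list of Trithorax and MLL complex regulators were detected, and 1 was at least 1.5-fold higher and 3 at least 1.5-fold lower in both knockdowns, beside 6.35% and 8.05% of all genes. KDM6B, a demethylase that removes the Polycomb mark, read 91.0 (SMARCA4-KD1), 83.6 (SMARCA4-KD2) and 51.3 (NC), or 0.74 and 0.67 above NC. MLLT1, a partner in MLL fusions and elongation complexes, read 4020, 3864 and 7113, with a difference of -0.91 in each. PSIP1, which tethers MLL and menin to chromatin, read 5100 (SMARCA4-KD1), 5195 (SMARCA4-KD2) and 8249 (NC), or -0.78 and -0.70, and ASH2L, a core MLL subunit, read 1918, 1911 and 2880, or -0.67 and -0.62. KMT2A, the MLL methyltransferase itself, was within 0.13 of NC. The 17 genes had medians of 0.03 (SMARCA4-KD1) and -0.07 (SMARCA4-KD2).

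All 19 Polycomb genes of the list were detected and none was past 1.5-fold in both knockdowns, beside 14.4% of all genes. EZH2, the methyltransferase, read 3875 (SMARCA4-KD1), 3344 (SMARCA4-KD2) and 3873 (NC), and BMI1 was within 0.04 of NC. The median was 0.10 and -0.007. Of 16 retinoic acid pathway genes, 13 were detected and 1 was at least 1.5-fold higher in both, beside 6.35% of all genes. This was DHRS3, a retinaldehyde reductase, at 12034, 11487 and 5622, or 1.01 and 1.00 above NC. That list had medians of 0.34 (SMARCA4-KD1) and 0.05 (SMARCA4-KD2).

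Among the epithelial markers, CLDN4, a tight junction protein, was lower by -0.67 and -0.68, and KRT20, a marker of differentiated colon epithelium, read 40.2, 50.8 and 17.5. KRT20 was not well above background in NC, so its differences of 1.10 and 1.49 are lower limits. Of the fibroblast markers 2 of 7 were detected, of the endothelial 2 of 4, of the leukocyte 3 of 4 on the array and of the hepatocyte 1 of 3. None of them was past 1.5-fold in both knockdowns.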
